A study of Mus musculus with 6 samples.

Results

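The cytosolic ribosomal protein genes were followed in the cochlear sensory epithelium of mice that overexpress the inward rectifier potassium channel Kir2.1 (Kir2.1-OE). Members were chosen by symbol alone. A gene was included when its symbol was Rpl or Rps followed by a number and at most 1 of the letters a, l or x, or when it was Rplp0, Rplp1, Rplp2 or Rpsa. This gave 81 of the 24411 genes in the table, 32 of the small (40S) subunit, among which Rpsa was counted, and 49 of the large (60S) subunit. By the GENCODE annotation 80 of them are protein-coding genes and 1, Rps4l, is a transcribed processed pseudogene, that is, a retrocopy. The study made the comparison to find pathways behind hair-bundle changes in inner hair cells (IHCs), the primary sensory cells of the cochlea. In Kir2.1-OE these cells lack intrinsic Ca2+ action potentials before the onset of hearing. The counts themselves show which transcripts differ between the genotypes in the dissected tissue.

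Kir2.1-OE mice carried Otof rtTA+/- together with Kir2.1+/-, a transgene in which a tetracycline-responsive promoter drives Kir2.1 and a tau-lacZ reporter, and controls were littermates with Otof rtTA+/- and no Kir2.1 transgene. Both groups drank doxycycline, both lines were on the C57BL/6N background, and the rtTA activator, driven by the Otof (otoferlin) promoter, was therefore present in both. Poly(A) RNA was sequenced at postnatal day 9 from 3 pools per group, each of 8 cochleae from 4 mice. The labels call the tissue cochlea and the study's methods sensory epithelium, in which IHCs are a minority, while the Otof promoter acts mainly in IHCs. Between 35430940 and 41205047 reads were assigned to genes per library. The label check passed: Kcnj2, the gene that encodes Kir2.1, had normalised read counts of 3612, 3813 and 2213 in Kir2.1-OE and of 236, 228 and 226 in control. All 4 inner hair cell markers and all 6 general hair cell markers were above 0.

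Ribosomes are built from ribosomal RNAs and a fixed set of proteins, each usually needed in equal copy number, and the genes for these proteins are among the most highly expressed in almost every cell. Many of their transcripts begin with a cytosine followed by a run of pyrimidines at the 5′ end (the 5′ terminal oligopyrimidine, or TOP, motif), through which the mTORC1 pathway and the RNA-binding protein LARP1 control their translation and stability. A few members have a second, diverged gene (a paralog, such as Rps27 and Rps27l), and many have retrocopies elsewhere in the genome, intronless copies made from the spliced transcript, so that short reads cannot always be assigned to a single gene.

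This matters most for Rps27, a zinc-finger protein of the small subunit, so the coding sequences of Rps27 and its paralog are shown first (252 nucleotides each, spliced from the exons, mm10 with GENCODE M21). Rps27 lies at chr3:90212522-90213651 on the minus strand and Rps27l at chr9:66946086-66949516 on the plus strand. In the Rps27l sequence capitals mark the 60 positions at which it differs from Rps27, which leaves an identity of 76.2%.
Rps27: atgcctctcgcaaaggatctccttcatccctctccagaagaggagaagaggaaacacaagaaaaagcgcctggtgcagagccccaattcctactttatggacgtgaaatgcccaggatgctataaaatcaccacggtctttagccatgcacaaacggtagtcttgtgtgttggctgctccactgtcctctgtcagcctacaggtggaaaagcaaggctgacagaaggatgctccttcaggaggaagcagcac
Rps27l: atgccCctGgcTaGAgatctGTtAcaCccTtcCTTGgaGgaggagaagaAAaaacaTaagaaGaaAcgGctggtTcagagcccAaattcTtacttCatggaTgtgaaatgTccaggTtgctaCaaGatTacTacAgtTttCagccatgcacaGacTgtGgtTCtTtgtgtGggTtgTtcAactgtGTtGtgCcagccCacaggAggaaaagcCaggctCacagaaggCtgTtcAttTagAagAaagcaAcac
Another gene in the table, Rps27rt (chr9:114982366-114982739, minus strand), is a retrocopy whose gene and transcript are both 374 nucleotides long. Its coding sequence has 0 differences from that of Rps27, so the Rps27 line above is also the coding sequence of Rps27rt.

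Promoters were read from RefSeq (GRCm38.p6), which gave 72 promoter sequences for 60 of the 81 members. A run of at least 5 pyrimidines covering the annotated start stood in 27.8% of the members' promoters, against 10.1% of the 32851 promoters of all genes. Motifs were searched over the whole 300-base sequence and on either strand. The ETS-family motif CCGGAAG was found in 36.1% of the members' promoters, against 8.86% of the promoters of all genes. The YY1 motif AAGATGGC was found in 9.72% of them, against 2.75% of all. Neither motif contains the other, though their ends can overlap. The windows below run from 30 bases before the annotated start, which is base 31 of each 60-base line. The pyrimidine run that covers the start is in capitals, and the lines show members with and without one.
Rps27 (chr3:90213619-90213678, minus strand): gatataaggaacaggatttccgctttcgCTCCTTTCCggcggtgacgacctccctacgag
Rps6 (chr4:86857338-86857397, minus strand): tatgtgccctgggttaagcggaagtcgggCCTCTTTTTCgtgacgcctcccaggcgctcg
Rpl38 (chr11:114668550-114668609, plus strand): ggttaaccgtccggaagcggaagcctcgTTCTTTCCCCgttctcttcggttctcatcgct
Rpl7a (chr2:26910777-26910836, plus strand): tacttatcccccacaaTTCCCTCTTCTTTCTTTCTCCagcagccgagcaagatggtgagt
Rpl4 (chr9:64173357-64173416, plus strand): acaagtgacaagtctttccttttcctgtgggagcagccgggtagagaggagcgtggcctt
Rpl6 (chr5:121204471-121204530, plus strand): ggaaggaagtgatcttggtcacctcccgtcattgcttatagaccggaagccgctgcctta
The annotated start can lie some bases from the start used in the cochlea, so the absence of a run says only that none covers this base. The members with such a run did not stand far from the others in fold change between the genotypes. Their median log2 fold change was -0.82 over 20 tested genes, against -0.77 over the 37 tested genes with a promoter and no run.

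Ribosomal protein transcripts were lower in Kir2.1-OE as a group. They took up 3.01, 3.47 and 3.54% of the assigned reads in the 3 Kir2.1-OE libraries (3.34% ± 0.287, SD, n = 3) and 6.26, 5.55 and 5.51% in the 3 control libraries (5.77% ± 0.424, SD, n = 3), so that every Kir2.1-OE library lay below every control. In such bulk samples a change in the mix of cells and a change in the RNA of each cell cannot be told apart. Of the 81 members, 78 passed the filter on low counts. The other 3 were not tested: Rpl10l, which was at 0 in every library, and Rpl3l and Rpl39l, with normalised read counts of at most 9.03 and 14.2 in any library.

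All 78 tested members were lower in Kir2.1-OE at an adjusted p under 0.05 (edgeR's quasi-likelihood test, Benjamini-Hochberg over 15303 genes), with the largest adjusted p at 0.0256, and 0 were higher (0 also with DESeq2 and limma-voom, and 0 at an unadjusted p under 0.05). Among all tested genes 23.5% were lower and 27.3% higher. With the fold change of 1.5 that the study required in addition, 72 members were lower, against 5.08% of all genes lower and 15.5% higher. The normalised read counts of the 2 genotypes did not overlap for any of the 78 members, against 29.9% of all tested genes with every Kir2.1-OE library below every control. The members moved by similar amounts: their median log2 fold change was -0.79, or 57.9% of the control level, with a middle range from -0.88 to -0.72, and 68 of the 78 lay within 0.2 of the median. The median over all tested genes was 0.0096.

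**Figure D1:**
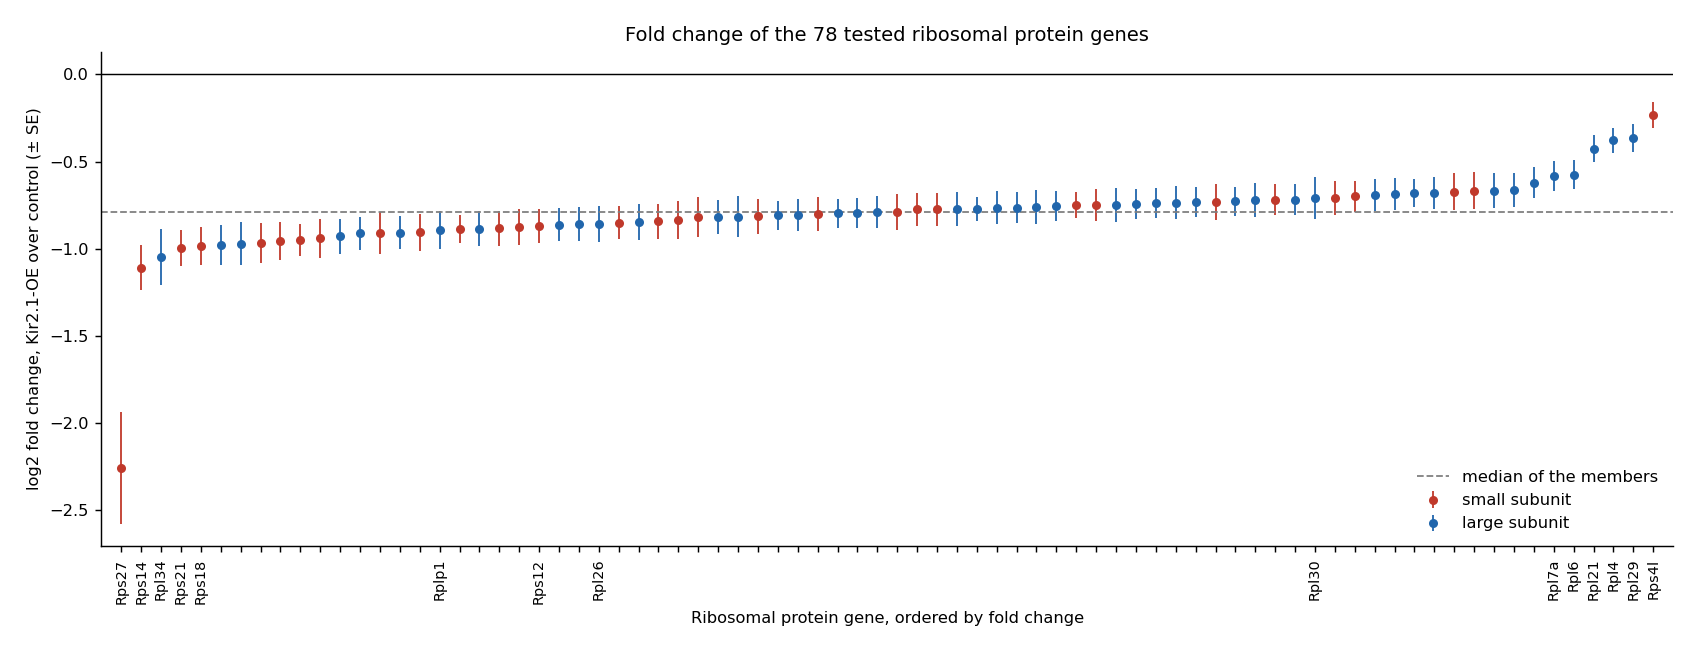
Log2 fold change (Kir2.1-OE over control, ± SE) of the 78 tested ribosomal protein genes, ordered from lowest to highest, with small subunit genes in red and large subunit genes in blue, and with names under the lowest, the highest, the departing and the most and least abundant members. All points lie below 0, most of them close to the dashed median of -0.79, with Rps27 far below it at -2.26 and Rps4l nearest to 0 at -0.23.

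The size of the difference was not the same in every library. Relative to the control mean, the median log2 level of the members was -0.94, -0.71 and -0.71 across the Kir2.1-OE pools, in the order of their replicate numbers, and 0.10, -0.05 and -0.07 across the control pools. Kir2.1-OE replicate 1 was thus the lowest library and control replicate 1 the highest, and without either of these the median log2 fold change was -0.73 in each case.

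Small and large subunit genes were both lower, the small subunit slightly more so. Small subunit genes took up 1.16, 1.36 and 1.39% of reads in Kir2.1-OE and 2.57, 2.25 and 2.23% in control, and large subunit genes 1.85, 2.11 and 2.15% against 3.69, 3.30 and 3.28%. The ratio of small to large subunit reads was 0.629, 0.645 and 0.647 in Kir2.1-OE (0.640 ± 0.00982, SD, n = 3) and 0.697, 0.682 and 0.679 in control (0.686 ± 0.0097, SD, n = 3). The 2 groups did not overlap, and the mean ratio in Kir2.1-OE was 0.932 of that in control. By gene, the median log2 fold change was -0.84 for the 32 small subunit genes, of which 31 passed 1.5-fold, and -0.76 for the 46 tested large subunit genes, of which 41 did. The ranges overlapped. Rps4l (-0.23), which had the smallest fold change, is counted with the small subunit by its symbol and is annotated as a pseudogene, while among the protein-coding small subunit genes Rps26 and Rps29 (both -0.67) fell least. Rpl34 (-1.05), which was lower than all small subunit genes but Rps27 and Rps14, belongs to the large subunit.

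**Figure D2:**
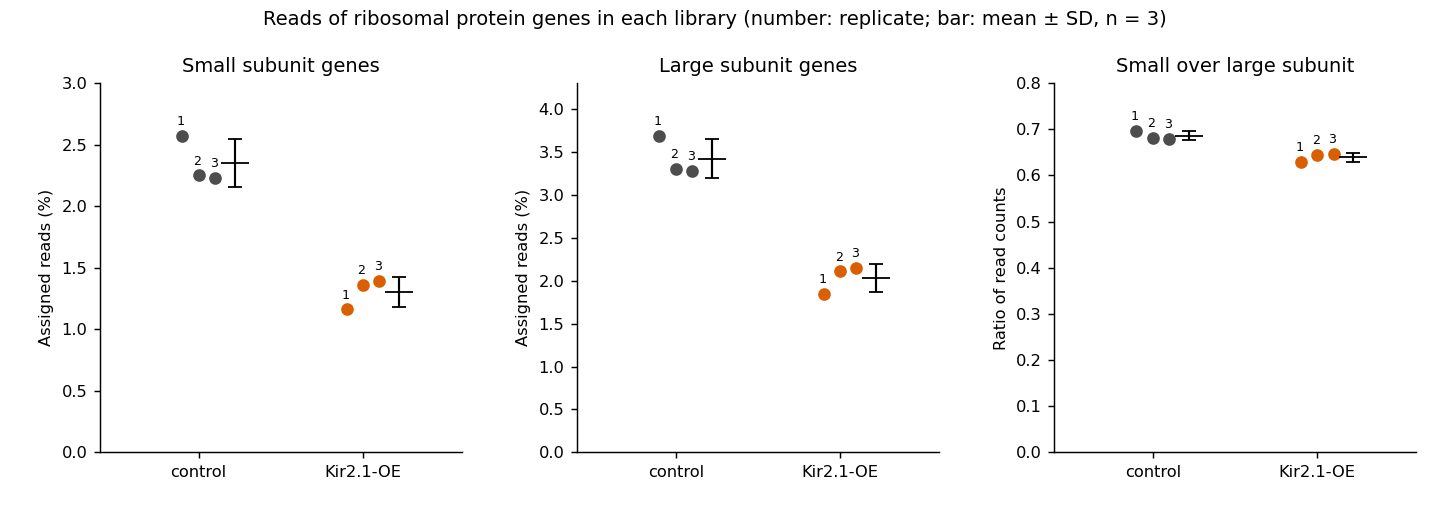
Percent of assigned reads from small subunit genes and from large subunit genes, and the ratio of small to large subunit reads, in each library (points, numbered by replicate, with the mean ± SD of 3). Kir2.1-OE libraries lie below control libraries in all 3 panels, by a wide margin for the shares and by a narrow one for the ratio (0.640 against 0.686).

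Within the large subunit, the stalk proteins, which recruit the elongation factors, fell together. Rplp0, the base of the stalk, had normalised read counts of 47270, 59755 and 58342 in Kir2.1-OE and of 109730, 87199 and 94194 in control, a log2 fold change of -0.82 ± 0.118 (SE). Its partners Rplp1 (-0.89) and Rplp2 (-0.82) were lower by close to the same amount. Rpl5 and Rpl11, which join the 5S ribosomal RNA in a particle that can also bind the p53 regulator Mdm2, fell from 43432 ± 2267 to 24818 ± 2395 and from 23164 ± 1649 to 13402 ± 1260 (SD, n = 3), log2 fold changes of -0.81 and -0.79. Rpl38, known from mouse mutants with skeletal patterning defects and impaired hearing, had counts of 5034, 5446 and 5358 against 9174, 8897 and 8984, with little spread within either group and a log2 fold change of -0.77. Rpl10, which is added late to the large subunit, had -0.67 and Rpl3, which lies near the peptidyl transferase centre, -0.77.

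In the small subunit, Rpsa, which is also described as a laminin receptor, fell from 52179 ± 3392 to 30509 ± 2966 (SD, n = 3; log2 fold change -0.77). Rps6, the substrate of the S6 kinases downstream of mTORC1, fell from 48860 ± 3597 to 30087 ± 2488 (-0.70). Rps19, the gene most often mutated in Diamond-Blackfan anaemia, fell from 17437 ± 1076 to 8985 ± 1334 (-0.96). The 4 X-linked members Rpl10, Rpl36a, Rpl39 and Rps4x were all lower, with a median of -0.76, against -0.79 for the 74 tested autosomal members.

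Several members that are widely used as reference genes in quantitative PCR were among those that fell. Rps18 had normalised read counts of 10964, 13467 and 13645 in Kir2.1-OE and of 26971, 22085 and 26214 in control, a log2 fold change of -0.98 ± 0.11 (SE). Rpl13a fell from 57762 ± 4617 to 31310 ± 3477 (SD, n = 3; -0.88) and Rpl19 from 34050 ± 1394 to 21223 ± 1536 (-0.68). In none of the 3 genes did a Kir2.1-OE library reach a control library. With the offsets for length and GC content described further on, Rps18 had -0.56, Rpl13a -0.46 and Rpl19 -0.18. Rpl19 then no longer passed the test. It passed, at -0.39, with the median length of the coding transcripts in place of the longest.

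The remaining members filled the range between the genes named here. Rps27a, a ubiquitin fusion of the small subunit, fell from 25746 ± 542 to 13939 ± 1197 (SD, n = 3), a log2 fold change of -0.89. Genes at the low end included Rpl32 (-0.98), Rpl27 (-0.97), Rps9 (-0.94) and Rpl9 (-0.93). Genes at the high end included Rps29 (-0.67), Rps26 (-0.67), Rpl8 (-0.66) and Rpl28 (-0.62). None of these 9 genes differed from the typical member at an adjusted p under 0.05 without the offsets for length and GC content. With them, Rpl9 and Rps9 departed downwards and Rps26 and Rps29 upwards.

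Relative to their length, the members differed in level by a large factor, while their fold changes did not follow their level (Spearman's rho = -0.0044 between log2 fold change and control count over 78 genes, which share the same 6 libraries). Normalised read counts per kilobase of transcript in control were highest for Rps14 (101100), a protein of the platform of the small subunit, Rplp1 (84960) and Rps12 (72751). Among the tested members they were lowest for Rps27 (1272), Rpl30 (1307) and Rpl26 (1629). Each of these 3 has a listed retrocopy that shares over 50% of the sequence of its representative transcript.

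The paralog pairs gave the following differences. Rps27l had normalised read counts of 1478, 1654 and 1643 in Kir2.1-OE and of 2772, 2545 and 2712 in control, a log2 fold change of -0.75 ± 0.0739 (SE), close to the median of the members. Rps4x, the X-linked gene, fell from 45192 ± 4403 to 27237 ± 2754 (SD, n = 3; -0.73), while Rps4l, the autosomal gene named after it and annotated as a transcribed processed pseudogene, had 1671, 1823 and 1769 against 2088, 2167 and 1924, a log2 fold change of -0.23 ± 0.0737 (SE; adjusted p = 0.0256). Rps4l lost its call without Kir2.1-OE replicate 1 (-0.21), control replicate 1 (-0.22) or control replicate 2 (-0.19).

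Some paralogs fall outside the symbol rule. Rpl22 (-0.69) and Rpl22l1 (-0.90), and Rpl36a (-0.80) and Rpl36al (-0.64), were lower as pairs. Rpl7 had -0.81 and Rpl7l1 -0.27, the latter falling from 3923 ± 104 to 3261 ± 137 (SD, n = 3). Rpl39 fell by 0.91 on the log2 scale and its paralog Rpl39l was among the 3 genes too low to test. Other ribosomal proteins with symbols of another form moved with the members: Rps3a1 had -0.80, Fau, a ubiquitin-like fusion to a small subunit protein, -0.82, and Gnb2l1 (Rack1), a scaffold on the small subunit, -0.93. All 7 genes of this list were lower at an adjusted p under 0.05, with a median of -0.80.

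Members that departed from the group were sought by scaling the libraries on the tested members themselves, so that a gene that fell as much as the typical member had a difference of 0. On this scale 9 of the 78 members differed at an adjusted p under 0.05 (edgeR's quasi-likelihood test over 15303 genes), 3 lower and 6 higher, against 0.15% of all tested genes lower and 84.4% higher. On this scale a gene with equal normalised counts in both genotypes lies above 0. On the low side were Rps27 (-1.49 ± 0.31, SE, relative to the typical member), Rps14 (-0.32 ± 0.086) and Rps21 (-0.21 ± 0.091). Rps27l was not among them, with a difference of 0.04 ± 0.098 (adjusted p = 0.695). When the model also corrected for transcript length and GC content, as described further on, Rps27l did depart upwards, by 0.24 (adjusted p = 0.0371).

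Rps14 had normalised read counts of 23068, 30784 and 30216 in Kir2.1-OE and of 67945, 54044 and 59088 in control, a log2 fold change of -1.11. Rps21, another protein of the small subunit, had 7717, 9270 and 10234 against 18642, 17890 and 17764, a log2 fold change of -0.996. In both genes the highest Kir2.1-OE library stayed well below the lowest control. Rpl34 (-1.05) and Rps18 (-0.98) complete the 5 lowest members, and neither passed the test of difference from the typical member (adjusted p = 0.0934 and 0.0683).

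On the high side the members that fell least were Rps4l (0.56 ± 0.11, SE, above the typical member), Rpl29 (0.43 ± 0.09), Rpl4 (0.42 ± 0.083), Rpl21 (0.37 ± 0.099), Rpl6 (0.22 ± 0.075) and Rpl7a (0.21 ± 0.081). They were still lower in Kir2.1-OE than in control. Rpl4, a protein that lines the exit tunnel, had normalised read counts of 30842, 32483 and 32274 in Kir2.1-OE and of 42741, 41537 and 39875 in control, a log2 fold change of -0.38. Rpl29 had 10125, 10886 and 10813 against 14752, 13718 and 12495 (-0.36), and Rpl21 had 16254, 16746 and 16773 against 22733, 23741 and 20402 (-0.43). The 3 Kir2.1-OE libraries of these genes lay closer together than their 3 controls. Rpl6 (-0.57) and Rpl7a (-0.58) fell by just under 1.5-fold. In this fit the 3 members that departed downwards belong to the small subunit and those that departed upwards, apart from Rps4l, to the large. This division did not hold with the offsets for length and GC content, where Rps26 and Rps29 also departed upwards and Rpl9 and Rpl12 downwards.

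The 9 genes were not equally stable. Rpl21, Rpl29, Rpl4, Rps14 and Rps4l differed from the typical member under each of the 11 ways of fitting that were tried. Rps27 lost its call once the reads of its retrocopy were added to it, and Rps21, Rpl6 and Rpl7a each lost theirs when single libraries were left out (Rps21 without Kir2.1-OE replicate 1 or 2 or control replicate 2 or 3, Rpl6 without Kir2.1-OE replicate 1 or 3 or control replicate 2, and Rpl7a in each of the 6 cases). All of Rps21, Rpl6 and Rpl7a also lost their calls with a block for the replicate number. Rps21 further lost its call with scaling on the summed member counts and with the copies added. With the offsets for length and GC content its difference from the typical member was -0.01, and it did not pass.

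Rps27 was the member farthest from the group and also the one whose reads were hardest to place. It was assigned 55, 80 and 132 reads in Kir2.1-OE and 382, 375 and 583 in control, while Rps27rt was assigned 9041, 10922 and 10746 against 20395, 23040 and 17169. Of the distinct 31-base stretches in the representative Rps27 transcript of 345 nucleotides, 98.7% also occur in a transcript of Rps27rt. Reads of this transcript can thus be told apart only over a few bases, which makes the value of Rps27 uncertain. The longest annotated Rps27 transcript, of 672 nucleotides, was not compared in this way. Rps27 received 0.607, 0.723 and 1.21% of the reads of the pair in Kir2.1-OE and 1.84, 1.601 and 3.28% in control. The log2 fold change of Rps27 was -2.26 ± 0.32 (SE) and that of Rps27rt -0.90 ± 0.102. For the pair together, the normalised read count fell from 20063 ± 1740 to 10612 ± 1135 (SD, n = 3), 0.529 of the control level, and with the copies added the log2 fold change of Rps27 was -0.92. Rps27rt and the other retrocopies were singled out after their values had been seen.

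**Figure D3:**
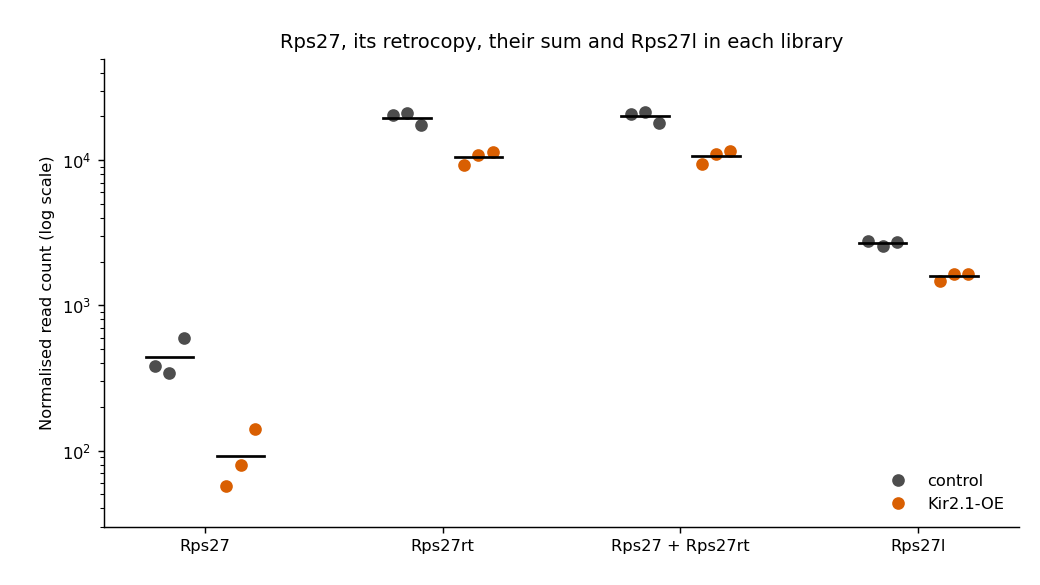
Normalised read count (log scale) of Rps27, of its retrocopy Rps27rt, of their sum and of the paralog Rps27l in each library (points, with a bar at the mean of 3). Rps27 stands more than 10-fold below Rps27rt and shows the widest gap between the genotypes, whereas the sum falls to 0.529 of control and Rps27l by a like amount.

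Other members shared sequence with listed copies too. In 15 of the 81 members at least 20% of the 31-base stretches of the representative transcript occurred in another listed gene. In 49 members 0% did. Rpl26 shared 69.8% with Gm15772, which was assigned far more reads than Rpl26 itself (24652 ± 2073 against 857 ± 95 normalised reads in control, SD, n = 3) and had a log2 fold change of -0.84, against -0.86 for Rpl26. The retrocopy of Rpl30, Gm12191, likewise had 14002 ± 1254 against 745 ± 49.2 in control, with log2 fold changes of -0.74 and -0.71. Rpl34 received 12.5% ± 1.59 of the reads it shared with Rpl34-ps1 in Kir2.1-OE and 14.8% ± 2.95 in control (SD, n = 3), and with the copies added its log2 fold change was -0.83. Rpl29 and Rpl21, 2 of the members that departed upwards, shared 41.6% and 38.2%, and kept log2 fold changes of -0.37 and -0.41 with the copies added. Among the 63 tested members that shared under 20%, all were lower, with a median of -0.77.

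The members' transcripts are short, and fold changes in these libraries ran from lower to higher as transcripts grew longer. Across the 15192 tested genes with an annotated length Spearman's rho was 0.557, a correlation across genes that are not independent replicates. The longest annotated transcripts of the members spanned 383 to 5179 nucleotides with a median of 1076, against a median of 3380 over all genes. Among the 622 other tested genes with no transcript of 1000 nucleotides or more, 380 were lower and 9 higher, with a median log2 fold change of -0.49. The 34 tested members under 1000 nucleotides had a median of -0.79.

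Within the members, fold change was nearly unrelated to the length of the longest transcript (rho = 0.027 over 78 genes). With the length of the representative transcript rho was 0.223 over the same 78 genes. In each of the length classes that held members, their median lay below that of the other genes. For a longest transcript from 500 to under 700 nucleotides the medians were -0.84 for 11 members and -0.52 for 130 other genes. From 1000 to under 1500 they were -0.76 for 21 members and -0.36 for 1074 others, and from 2000 to under 4000 they were -0.83 for 11 members and -0.06 for 6243 others. The longest annotated transcript is not always the one in use. By the length of a representative transcript, 18 members under 500 nucleotides had a median of -0.84 against -0.38 for 284 others, and 22 members from 700 to under 1000 had -0.73 against -0.41 for 704 others.

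**Figure D4:**
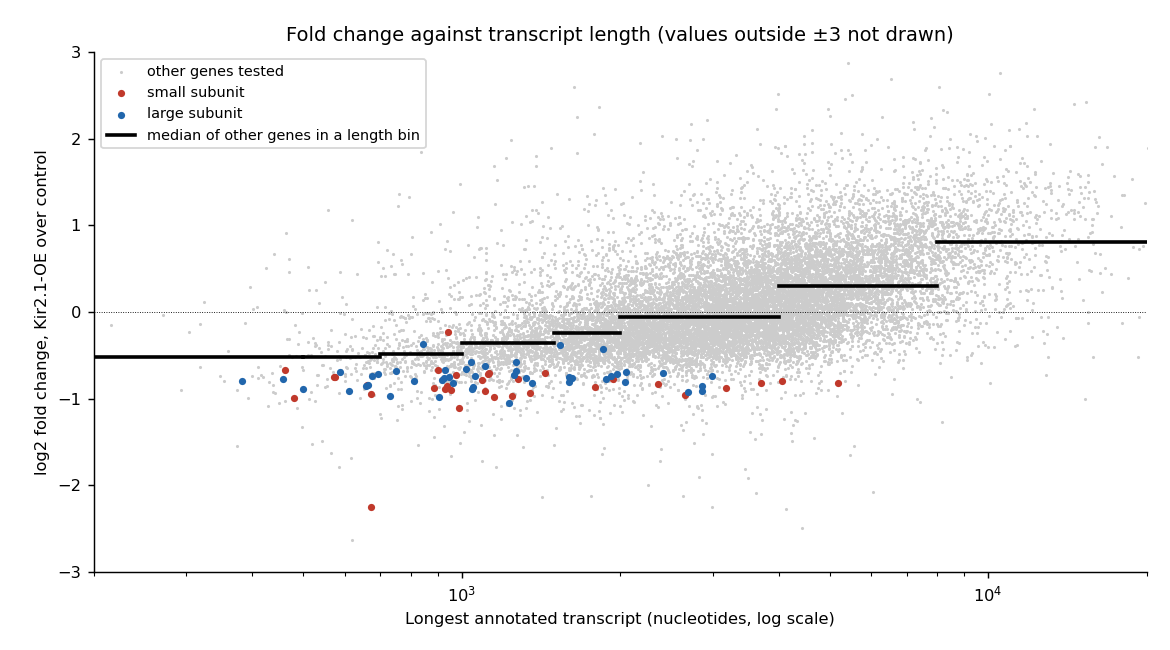
Log2 fold change (Kir2.1-OE over control) against the longest annotated transcript (nucleotides, log scale) for the tested genes, with small subunit genes in red, large subunit genes in blue and black bars at the median of the other genes in each length class. The bars rise from -0.52 in the shortest class to 0.81 in the longest, and most members lie below the bar at their length.

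When this trend was entered in the model as offsets for transcript length and GC content, 64 of the 78 members were still lower, against 15% of all tested genes, and 12 of them past 1.5-fold, against 2.44%. The median log2 fold change of the members went from -0.79 to -0.38, with -0.41 for the small and -0.35 for the large subunit. The members past 1.5-fold with the offsets included Rps27 (-1.74), Rps14 (-0.70), Rps19 (-0.82), Rpl34 (-0.70) and Rps15a (-0.97). Rps27l (-0.15, adjusted p = 0.094), Rpl6 (-0.18), Rpl21 (-0.14), Rpl7a (-0.14), Rpl4 (-0.02) and Rpl10 (-0.15) no longer passed, and Rpl29 (0.04) and Rps4l (0.16) changed sign without passing the test. Rps15a has a longest transcript of 5179 nucleotides and a representative transcript of 640, and its value depended on this choice. With the median length of the coding transcripts in place of the longest, 75 members were lower, against 18% of all genes, with a median of -0.49. Rps27l (-0.34), Rpl6 (-0.36), Rpl7a (-0.30), Rpl10 (-0.33) and Rpl4 (-0.20) then passed the test, Rpl21 (-0.18), Rpl29 (-0.10) and Rps4l (-0.03) did not, and Rps15a had -0.44, under 1.5-fold. The cause of the length trend was not tested.

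Other gene sets of short transcripts were set beside the members, and beside the 23.5% lower and 27.3% higher among all tested genes. They were not matched to the members in length. The median longest transcript was 1849 nucleotides for mitochondrial ribosomal proteins, 983 for oxidative phosphorylation genes and 1895 for proteasome subunits. It was 1076.5 for the members and 3380 over all tested genes. Mitochondrial ribosomal proteins, which build the separate ribosome of mitochondria, were lower in 68 of 77 tested genes and higher in 0, with a median log2 fold change of -0.39. Mrps18c (-0.80) and Mrpl14 (-0.71) were lowest, and Mrps26 (-0.21) and Mrps25 (-0.23) had the smallest differences among the genes that passed. Nuclear genes of oxidative phosphorylation were lower in 67 of 75 and higher in 0, with a median of -0.52. The lowest were Atp5e (-0.82), a subunit of the ATP synthase, and Uqcrh (-0.75), a subunit of complex III.

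Proteasome subunits were lower in 29 of 38 tested genes and higher in 1, with a median of -0.39. Psma5 (-0.77) and Psma6 (-0.67), of the proteasome core, were lowest and Psmd11 (0.19), of the regulatory particle, was the gene that rose. Once length and GC content were accounted for, 24 of the 77 mitochondrial ribosomal protein genes, 16 of the 75 oxidative phosphorylation genes and 11 of the 38 proteasome genes were lower, with medians of -0.12, -0.09 and -0.09, against 64 of 78 and -0.38 for the cytosolic ribosomal protein genes and 15% of all tested genes. With the median coding transcript these counts were 30, 39 and 19, with medians of -0.19, -0.22 and -0.20, against 75 of 78 and -0.49 for the members and 18% of all genes.

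**Figure D5:**
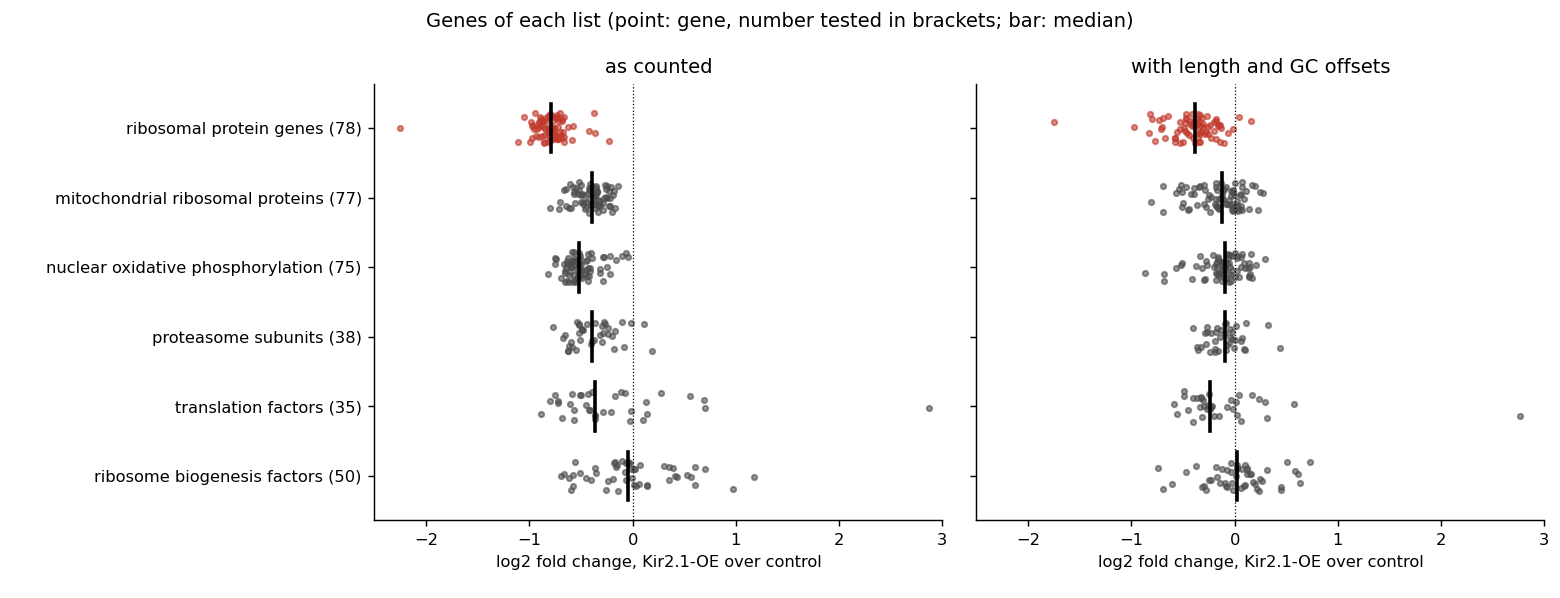
Log2 fold change (Kir2.1-OE over control) of the tested genes of 6 lists (points, with a bar at the median), as counted and with the length and GC offsets. The ribosomal protein genes have the lowest median in both panels, -0.79 and -0.38, and the medians of the other lists lie between -0.52 and -0.04 as counted and between -0.24 and 0.03 with the offsets.

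Genes that work with the ribosome were counted in the same way. Of 35 translation factors 22 were lower and 4 higher, with a median of -0.37, against 23.5% lower and 27.3% higher among all tested genes. The elongation factors Eef1b2 (-0.89) and Eef1a1 (-0.80) fell by as much as the members, while the elongation factor Eef2 (-0.28) fell by less. Eef1a1 had normalised read counts of 237910, 288370 and 289920 in Kir2.1-OE and of 535230, 446890 and 442570 in control. The initiation factors Eif3a (0.70) and Eif4g1 (0.69), with long transcripts, rose. With the length and GC offsets they had 0.58 and 0.17, and Eif4g1 no longer passed the test (adjusted p = 0.115).

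Ribosome biogenesis factors, which process and assemble the subunits, went in both directions, with 15 of 50 lower, 13 higher and a median of -0.04, shares close to the 23.5% lower and 27.3% higher among all tested genes. Among the genes that passed the test, Emg1 (-0.70), a methyltransferase of 18S ribosomal RNA, and Polr1c (-0.67), a subunit of RNA polymerases I and III, were lowest. Tcof1 (1.18), which acts in ribosomal DNA transcription, and Utp20 (0.97), of the small subunit processome, were highest.

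Of 22 genes of mTORC1 and MYC control, 7 were lower and 8 higher, with a median of -0.12, again not far from the shares among all genes. Of those that passed the test, Lamtor5 (-0.52) and Rheb (-0.49), both activators of mTORC1, were lowest. With the length and GC offsets Lamtor5 had -0.01 and no longer passed, while Rheb had -0.47 and did. In that fit 2 genes of the list were lower and 3 higher. Larp1, which binds TOP transcripts, rose from 1608 ± 259 to 3714 ± 472 (SD, n = 3; log2 fold change 1.21, and 0.56 with the offsets), and Tsc1, an mTORC1 inhibitor, had 1.06, and 0.45 with the offsets. Mtor (0.92) and Rptor (0.65) were also higher as counted. With the offsets Mtor had 0.19 and still passed, while Rptor had -0.08 and did not. Of 19 tested p53 target genes 6 were lower and 1 higher, with a median of -0.09, against 23.5% lower and 27.3% higher among all tested genes. Of those that passed, the lowest were Perp (-0.56) and Bax (-0.51), and Zmat3 (0.50) rose. With the length and GC offsets Perp had -0.28, Bax -0.22 and Zmat3 0.03, and Zmat3 no longer passed. These gene lists describe the surroundings of the members and were given no test as lists.

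Markers of other cells in the dissected tissue also moved with genotype as counted, where 27.3% of all tested genes were higher and 23.5% lower. Of 6 spiral ganglion neuron markers 4 were higher in Kir2.1-OE, and their summed normalised count ranged from 19292 to 49600, against 8588 to 14419 in control. All 4 glial markers were higher (296400 to 387350 against 213820 to 270810), as were 2 of 5 cartilage and bone markers (644080 to 775590 against 287350 to 401840) and 2 of 3 cycling cell markers (407 to 637 against 235 to 256). Of 5 erythrocyte markers 3 were lower (10855 to 13789 against 17917 to 44665). With the length and GC offsets, 4 neuron, 3 glial, 2 cartilage and bone and 2 cycling cell markers were higher. The erythrocyte markers then had 0 lower, and 2 lower with the median coding transcript.

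Among markers of the sensory epithelium itself, of 4 inner hair cell markers 2 were higher (9302 to 11092 against 7746 to 8265), of 6 hair cell markers 3 (38618 to 48687 against 29742 to 31995), of 4 outer hair cell markers 2 (25594 to 31247 against 27584 to 34249) and of 7 supporting cell markers 3 (90088 to 104820 against 86801 to 100210). Among markers of further cell types, of 3 fibrocyte markers 2 were higher (219170 to 293300 against 170220 to 294330), and of 4 macrophage markers 2 were higher and 1 lower (5964 to 6322 against 5314 to 5598). No marker was at 0 in all libraries. As counted, 27.3% of all tested genes were higher and 23.5% lower. With the length and GC offsets, 0 inner hair cell, 2 hair cell, 2 outer hair cell and 1 supporting cell markers were higher. Of the fibrocyte markers 2 and of the macrophage markers 1 were then higher. In the same fit 1 supporting cell marker and 0 macrophage markers were lower. The part of these marker shifts in the lower ribosomal protein reads was not tested.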

How the data were processed

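RNA-seq was performed on 3 pools of Kir2.1-OE and 3 pools of littermate control cochleae. Per the study's methods, the authors aligned reads to mm10 with the nf-core RNA pipeline and quantified them with Salmon. They deposited expected counts per gene symbol, estimates that need not be whole (6.95% of the values were not), neither length-corrected nor scaled. Tool versions, annotation, strand setting and duplicate handling were not given in the sources used here. Counts were rounded and genes filtered with filterByExpr (minimum count 10). edgeR 4.0.16 (R 4.3.3) was used with TMM scaling (factors 0.984 to 1.01), its quasi-likelihood test on genotype and Benjamini-Hochberg adjustment over 15303 genes, with a threshold of 0.05. Normalised read counts are divided by the TMM-scaled library size relative to the mean library. Total assigned reads were 35430940 to 41205047 per library. These give counting error well below the spread between pools, with a chi-square per degree of freedom of 15.7 to 31.2 between libraries of the same genotype.

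The departure test used size factors from the ratios of the tested members. Length, GC content and shared 31-base stretches came from GENCODE M21. All 81 members matched by symbol, and of the other symbols 384 had no match. Length and GC offsets were a loess trend (span 0.4) per library, fitted to log2 ratios against the average of the 6 libraries. In simulated counts for the 6 libraries over 15200 genes, the test called 81.8% of 2-fold and 56% of 1.5-fold changes and 16 unchanged genes. With a length trend added, over 15179 genes, it called 3143 unchanged genes without the offsets and 13 with them. The simulated trend was linear in the log2 of the longest transcript, the length the offsets also use. The simulation thus cannot show whether that length is the right one. Alternatives were 4 scalings, 2 filters, a block for the replicate number, 4 fits with length and GC offsets, DESeq2 1.42.0, limma-voom (limma 3.58.1), unrounded counts, and each library left out. Adding the reads of near-identical copies was chosen after seeing the data. Figures were drawn with matplotlib 3.10.9.

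The members and lists were chosen with earlier results of these data known. Genes were named by rule: Kcnj2, Rps27 and Rps27l, the 5 highest and 5 lowest fold changes, members that departed from the group, the stalk proteins and Rpsa, Rpl5, Rpl11, Rps6, Rps19, Rpl38, Rpl10 and Rps4x, the paralog pairs, the 3 most and least abundant per length, and the 2 highest and lowest passing genes of each other list. Other genes named were chosen after their values were seen. Some genes of these lists enter the counts and are not reported here by name.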

Additional observations from a re-analysis of the deposited data

How the results depend on the processing

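With 3 pools per group and all mice of one age, the adjusted p-values speak only for the spread between these pools. The count of 78 members lower and 0 higher was kept with DESeq2's size factors, library size alone, upper quartile scaling, scaling without the members, no filter, a stricter filter, DESeq2's Wald test, limma-voom, unrounded counts and copies added. Upper quartile scaling moved the median log2 fold change of the members to -0.88. The difference of medians between small and large subunit was negative in all of these fits and in those below.

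The offsets for length and GC content moved the values most. With the longest transcript, 64 members were lower, 12 of them past 1.5-fold, with a median of -0.38. With the trend fitted without the members the values were 67, 14 and -0.39, with the median coding transcript 75, 23 and -0.49, and with the offsets and the replicate block together 47, 12 and -0.38. Rpl29 and Rps4l changed sign, to 0.042 and 0.16 with the offsets, 0.023 and 0.14 with the trend fitted without the members and 0.046 and 0.16 with the offsets and the block. With the median coding transcript they had -0.10 and -0.03. The number of members that departed from the group went from 9 to 27 with the offsets, with 8 of the 9 among them and Rps21 not.

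With each library left out in turn, 77 to 78 members were lower, 71 to 74 of them past 1.5-fold, with a median from -0.85 to -0.73, a small-minus-large difference from -0.093 to -0.052 and 6 to 8 departing members. The share of reads ranged from 3.24 to 3.50% in Kir2.1-OE and from 5.53 to 5.90% in control. Of the values of single named genes under all alternatives, 631 kept their direction and side of the threshold and 41 did not.

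The replicate numbers paired no libraries: deviations of same-numbered libraries from their group means correlated at -0.11, -0.23 and -0.21, 0 libraries correlated best with their own number, and the column of control replicate 1 carried another number in its header. With the replicate block 77 members were lower (Rps4l lost its call), 72 past 1.5-fold, with a median of -0.79, and 6 departed from the group.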
